A study of Mus musculus with 10 samples.

Results

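A set of 9 transporter genes of the kind that define the blood-brain barrier, and the Wnt pathway transcription factor gene Lef1, were followed in liver sinusoidal endothelial cells of mice with and without a Gata4 deletion. The 10 genes were taken by symbol and Entrez number, and all 10 were found among the 24704 named genes of the table. The cells line the liver sinusoids, and each of the 10 arrays held their RNA from a pool of 3 mice. In the 5 knockout arrays, labelled Gata4-LSEC-KO, the mice carried the Clec4g-icre transgene, which acts in sinusoidal endothelium, together with a floxed Gata4 allele (Gata4tm1.1Sad), and the 5 control arrays came from siblings labelled WT. The sources used here do not say whether the siblings carried the transgene or the floxed allele alone, nor the age and sex of the mice. The cells were released with collagenase, enriched on a Nycodenz gradient and taken with CD146 beads. The comparison asks how the loss of Gata4 in these cells goes with the level of each transporter.

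Endothelium of the brain carries few vesicles and tight junctions without gaps, so that nutrients enter through membrane carriers and drugs are returned to the blood by ATP-driven pumps. Canonical Wnt signalling, in which beta-catenin acts with LEF1 or TCF factors, induces and keeps many of these carriers there. Sinusoidal endothelium of the liver is the opposite case: it is fenestrated, has no continuous basement membrane and filters plasma freely to the hepatocytes.

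The 10 genes did not move as a block. Slc2a1 and Abcb1a were higher in the knockout, Slc7a5 was lower, and the other 7 did not pass the threshold, an adjusted p under 0.05 by limma over all genes. That is 3 of 10, where 2.14% of all genes passed (1.30% higher and 0.846% lower). The same 3 were the members whose groups did not overlap, where 4.93% of all genes had groups apart. The members were chosen with earlier results of these data known, so neither comparison with all genes is a test. The members' median log2 fold change was 0.14, against -0.02 over all genes. All values below are log2 RMA values (RMA is a background-corrected, quantile-normalized array summary), and log2 fold changes are knockout minus control with their standard error (SE).

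**Figure D1:**
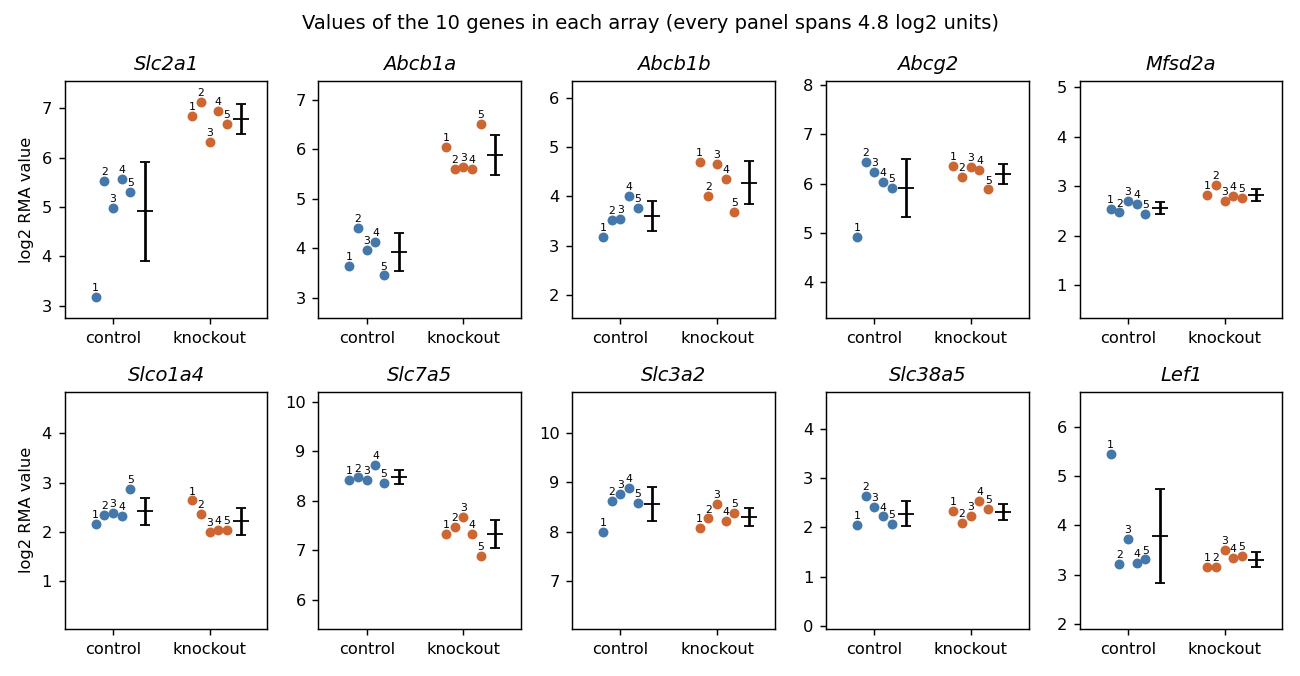
Log2 RMA value (y axis) of each of the 10 genes in the 5 control and 5 knockout arrays. Points are arrays with their replicate number, bars are the mean ± SD. The groups are apart in Slc2a1, Abcb1a and Slc7a5, and control replicate 1 is the lowest array for Slc2a1 (3.18) and the highest for Lef1 (5.45).

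Before the single genes, the arrays themselves need a word. Control replicate 1 correlated with the other arrays at 0.920 to 0.944 across genes, against 0.969 to 0.988 among the other 9. Its means over the macrophage markers (4.99) and stellate cell markers (5.09) were the lowest of all arrays. Endothelial identity was clear in every array, with pan-endothelial markers (12 genes such as Cdh5 and Pecam1) averaging 9.98 to 10.50 in the knockout and 10.09 to 10.37 in the control, and sinusoidal markers (8 genes such as Stab2 and Clec4g) 10.50 to 10.96 and 10.97 to 11.23. Of the 8 sinusoidal markers 2 passed by limma, Clec4g and Mrc1, both lower, and 6 had an unadjusted p under 0.05. Their change was negative in 7 of 8 (median log2 fold change -0.46), and 3 had groups apart, as did 4.93% of all genes. Of the pan-endothelial ones 0 of 12 passed by limma, with 2 at an unadjusted p under 0.05, as were 13.6% of all genes. Neutrophil markers were higher in the knockout, with 5 of 6 past the threshold and list means of 4.49 to 6.70 against 2.78 to 3.57. Bile duct markers averaged 4.61 to 6.55 against 3.71 to 4.55, with 0 of 6 past the threshold by limma and 5 at an unadjusted p under 0.05. Of the 6, 4 passed without knockout replicate 5, 2 without control replicate 1, 1 without knockout replicate 3, 5 with array weights, 3 with dim genes left out, 2 with the replicate number as a block and 1 with an intensity trend. The Gata4 probe set itself averaged 8.71 ± 0.15 in control arrays and 8.59 ± 0.24 in knockout arrays (SD, n = 5; log2 fold change -0.12 ± 0.13, adjusted p = 0.742), and the sources used here do not give where its probes lie relative to the deleted part, so this reading checks nothing. In such bulk samples, fewer cells of a type and less RNA per cell cannot be told apart.

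**Figure D2:**
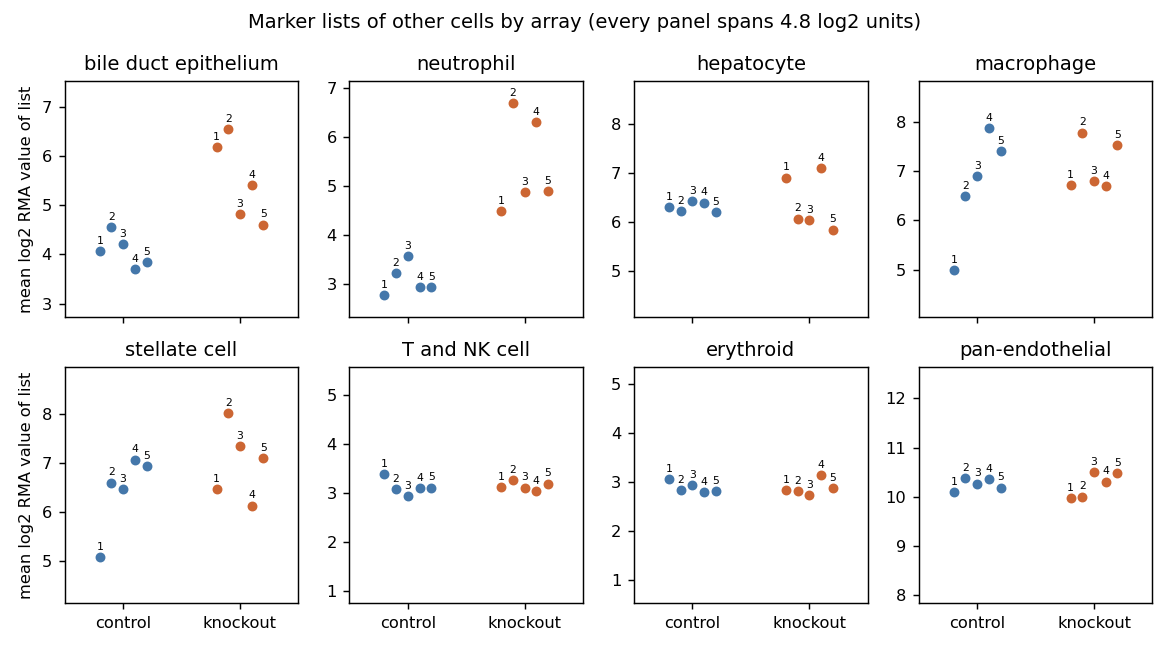
Mean log2 RMA value (y axis) over the markers of 8 cell types in each array, points with replicate numbers. Neutrophil and bile duct means are higher in all 5 knockout arrays than in any control array, while the T and NK cell, erythroid and pan-endothelial means overlap.

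Slc2a1 encodes GLUT1, the carrier that moves glucose down its gradient across the endothelium of the brain. It read 3.18, 5.52, 4.98, 5.57 and 5.30 in control replicates 1 to 5. In knockout replicates 1 to 5 it read 6.84, 7.12, 6.32, 6.94 and 6.68. All 5 knockout arrays lay above all control arrays (exact two-sided permutation p = 0.00794, the smallest that 5 against 5 arrays can give), and control replicate 1 lay far below the other 4 controls. The gene rose 3.66-fold (log2 fold change 1.87 ± 0.40 SE, 95% interval 1.00 to 2.74, adjusted p = 0.0348 by limma). Without control replicate 1 the rise was smaller but its spread was narrower, at 1.44 with an adjusted p of 0.00126, since the other 4 controls averaged 5.34 ± 0.27 (SD, n = 4).

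The call of Slc2a1 was close to the threshold. It ended when knockout array 1, 2, 4 or 5 was left out, and likewise control array 3 or 5, at adjusted p of 0.0553 to 0.0941, and the log2 fold change over all 10 such fits ranged from 1.44 to 2.03. The highest Slc2a1 value, in knockout replicate 2, fell in the array with the highest neutrophil and bile duct means. With the bile duct mean as a covariate the estimate was 1.53 ± 0.65, and with the neutrophil mean 1.13 ± 0.83, and neither passed. Both means lay apart between the groups, so these fits cannot separate them from the genotype. The part of other cells in the rise was not tested.

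The 250 bases upstream of the RefSeq start of Slc2a1 (build GRCm38.p6, chr4:119108495-119108744, + strand) are shown because they differ in base composition from those of the other riser, Abcb1a. They hold 66.4% G and C and 13 CpG dinucleotides, where the medians over 32851 such RefSeq windows were 52.4% and 6. The gene body spans chr4:119108745-119137330.

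Slc2a1: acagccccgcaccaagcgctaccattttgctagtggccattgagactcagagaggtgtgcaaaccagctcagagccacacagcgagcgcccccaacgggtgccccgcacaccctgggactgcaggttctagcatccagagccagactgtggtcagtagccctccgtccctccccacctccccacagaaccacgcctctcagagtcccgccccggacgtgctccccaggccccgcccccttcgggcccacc

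Of 9 other facilitative glucose transporters, Slc2a3 (GLUT3, a high-affinity carrier best known from neurons) rose by 0.77 ± 0.14 on the log2 scale (adjusted p = 0.0185) and 8 did not pass. Control arrays averaged 3.34 ± 0.23, under the array median of 3.71, and knockout arrays 4.10 ± 0.22 (SD, n = 5). Leaving out knockout array 2 or 4, or control array 3 or 5, ended its call (largest adjusted p 0.0572). The median change over the 9 was 0.18.

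Abcb1a and Abcb1b encode the paired mouse forms of P-glycoprotein, the pump that expels many lipophilic drugs from cells. Abcb1a is the form of brain capillaries. In control replicates 1 to 5 Abcb1a read 3.65, 4.42, 3.97, 4.13 and 3.45. In the knockout it read 6.05, 5.61, 5.64, 5.60 and 6.52. The gap between the groups was wider than the spread within either, with the lowest knockout array more than 1 log2 unit above the highest control array. Abcb1a rose 3.90-fold (log2 fold change 1.96 ± 0.22, 95% interval 1.48 to 2.45, adjusted p = 0.000859), and its p was the 55th smallest of all genes. It passed in all 10 fits that left out an array (1.80 to 2.09). The control mean of 3.92 was close to the array median of 3.71, so the fold need not be a ratio of RNA amounts. The highest Abcb1a value came from knockout replicate 5, the knockout array with the lowest bile duct mean. With the bile duct or neutrophil mean as a covariate the estimate was 2.08 ± 0.37 or 2.37 ± 0.46, at adjusted p of 0.0666 and 0.329. Both means lay apart between the groups, so these fits cannot separate them from the genotype. The part of other cells in the rise of Abcb1a was not tested.

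Abcb1b read 3.17, 3.53, 3.54, 4.01 and 3.76 in the control arrays and 4.70, 4.00, 4.65, 4.36 and 3.68 in the knockout arrays. Of the knockout arrays 3 lay above every control, and replicate 5, the highest for Abcb1a, was the lowest. The difference was 0.68 ± 0.21 with a 95% interval of 0.21 to 1.14, and it did not pass (adjusted p = 0.161 by limma, exact permutation p = 0.0397). Set within each array, Abcb1a minus Abcb1b averaged 0.32 ± 0.45 in control arrays and 1.61 ± 0.73 in knockout arrays (SD, n = 5). The pair was chosen after its values were seen, so no test is given, and the control mean of Abcb1b (3.60) was under the array median, where a log2 difference is not a ratio of RNA amounts. The 2 genes are close paralogs, and the sources used here do not say how far the probes of either read the other.

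Both genes lie on the + strand of chromosome 5 in GRCm38.p6, Abcb1a at chr5:8567091-8748575 and Abcb1b at chr5:8798147-8866314, with 49571 bases between them. Knockout minus control was positive for both, at 1.96 for Abcb1a, which passed, and 0.68 for Abcb1b, which did not. No test of a difference in response between the neighbours is given. Their upstream windows are printed for comparison. That of Abcb1a (chr5:8566841-8567090) has 40.4% G and C and 0 CpG dinucleotides, and that of Abcb1b (chr5:8797897-8798146) has 52.8% and 9. Capitals mark the core word of TCF/LEF sites, CTTTGA or its reverse complement TCAAAG, which begins 153 and 58 bases before the start of Abcb1a and is not among these letters for Abcb1b.

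Abcb1a: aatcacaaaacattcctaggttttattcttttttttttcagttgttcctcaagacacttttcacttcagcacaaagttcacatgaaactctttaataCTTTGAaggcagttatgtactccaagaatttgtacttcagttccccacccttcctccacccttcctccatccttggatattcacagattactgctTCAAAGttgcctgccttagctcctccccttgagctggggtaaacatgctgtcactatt
Abcb1b: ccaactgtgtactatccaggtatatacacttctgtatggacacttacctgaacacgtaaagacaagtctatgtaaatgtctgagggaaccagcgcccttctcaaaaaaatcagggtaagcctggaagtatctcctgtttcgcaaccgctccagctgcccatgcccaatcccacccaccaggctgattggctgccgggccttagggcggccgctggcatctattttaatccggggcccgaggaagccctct

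Abcg2 (chr6:58584491-58692451), the breast cancer resistance protein pump, read 4.92, 6.43, 6.24, 6.04 and 5.92 in the control arrays and 6.36, 6.13, 6.33, 6.27 and 5.88 in the knockout arrays. The groups overlapped, and control replicate 1 was the lowest array. The log2 fold change was 0.28 ± 0.24 (95% interval -0.25 to 0.82, adjusted p = 0.673), and without that array it was 0.03. Of 13 other ABC exporters 1 passed, the cholesterol exporter Abca1, which rose by 0.91 ± 0.11 (adjusted p = 0.00159) and passed without each array in turn. The other 12 did not pass, among them the phospholipid pump Abcb4, a relative of Abcb1a, at 0.15 ± 0.19, which was named after its value was seen. The list's median was 0.15.

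**Figure D3:**
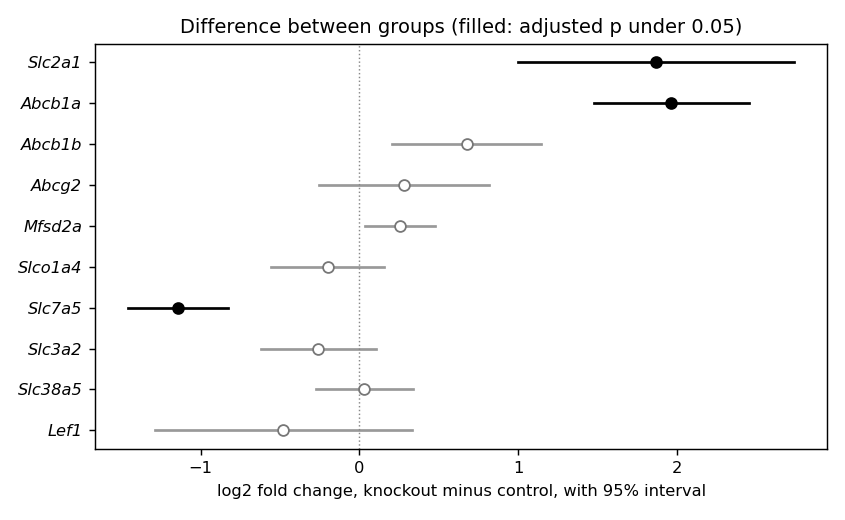
Log2 fold change, knockout minus control (x axis), of the 10 genes with 95% intervals, filled where the adjusted p was under 0.05. Slc2a1 (1.87) and Abcb1a (1.96) lie to the right, Slc7a5 (-1.14) to the left, and Lef1 has the widest interval among the other 7.

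Slc7a5 (chr8:121881146-121907686) encodes LAT1, the light chain of the exchanger for large neutral amino acids such as leucine and tryptophan, and Slc3a2 (chr19:8706882-8723369) encodes CD98hc, the heavy chain that brings LAT1 to the membrane. Slc7a5 went against the risers. It read 8.42, 8.47, 8.42, 8.72 and 8.35 in control replicates 1 to 5. In knockout replicates 1 to 5 it read 7.32, 7.46, 7.67, 7.32 and 6.89. Every knockout array was below every control array, and replicate 5 was the lowest. Slc7a5 was 2.21-fold lower (log2 fold change -1.14 ± 0.14, 95% interval -1.46 to -0.83, adjusted p = 0.00157). The call held without each array in turn (-1.23 to -1.03). With the bile duct or neutrophil mean as a covariate the estimate was -1.24 ± 0.24 or -1.24 ± 0.31, at adjusted p of 0.0994 and 0.612. Both means lay apart between the groups, so these fits cannot separate them from the genotype.

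Slc3a2 read 7.99, 8.62, 8.76, 8.88 and 8.59 in the control arrays and 8.08, 8.27, 8.57, 8.22 and 8.39 in the knockout arrays. Without control replicate 1, the lowest array, all knockout values would lie below the remaining controls. Its log2 fold change was -0.26 ± 0.17 (95% interval -0.62 to 0.10, adjusted p = 0.556), and -0.40 without that array (adjusted p = 0.111). Slc7a5 minus Slc3a2 within an array averaged -0.09 ± 0.30 in control arrays and -0.97 ± 0.30 in knockout arrays (SD, n = 5), a description of a pair chosen after its values were seen, with no test.

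Slc3a2 also pairs with other light chains. Of 5 measured, Slc7a6 (y+LAT2, which exchanges cationic for neutral amino acids) rose by 0.86 ± 0.19 (adjusted p = 0.0427) and 4 did not pass, Slc7a7 (y+LAT1), named after its value was seen, being at -0.66 ± 0.19 (adjusted p = 0.118). The call of Slc7a6 was lost when any knockout array, or control array 3 or 5, was left out (largest adjusted p 0.109). Within arrays, Slc7a5 minus Slc7a6 averaged 4.67 ± 0.35 in control arrays and 2.67 ± 0.27 in knockout arrays (SD, n = 5). The pair was chosen after its values were seen and each gene's groups were already apart in opposite directions, so no test is given. Among 10 genes of the amino acid response, in which ATF4 induces transporters and synthetic enzymes, Asns, the asparagine synthetase, rose by 1.42 ± 0.31 (adjusted p = 0.039) and 9 did not pass. Atf4 itself, named after its value was seen, was at -0.13 ± 0.15. Asns lost its call when knockout array 1, 2, 3 or 4, or control array 2, 3 or 5, was left out (largest adjusted p 0.103).

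Slc38a5 (chrX:8271381-8280179) encodes SNAT5, a sodium-coupled glutamine carrier. It read 2.05, 2.64, 2.42, 2.22 and 2.06 in the control arrays and 2.33, 2.09, 2.23, 2.53 and 2.37 in the knockout arrays. These values overlap throughout and lie under the array median, and without detection calls they cannot be told from background. The log2 fold change was 0.03 ± 0.14 (95% interval -0.27 to 0.33, adjusted p = 0.950), with a sign that changed in some fits. Of 9 relatives in the SLC38 family, the lysosomal glutamine carrier Slc38a7 fell by 0.64 ± 0.11 on the log2 scale (adjusted p = 0.0114), and 8 did not pass. The call of Slc38a7 held without each array in turn but was lost when values were scaled to the pan-endothelial genes (0.0568) and with the replicate number as a block (0.0696). The family's median change was 0.27.

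Mfsd2a (chr4:122946850-122961194), the carrier of lysophosphatidylcholine with docosahexaenoic acid that also restrains vesicle transport in brain endothelium, read 2.55, 2.47, 2.71, 2.65 and 2.44 in the control arrays. In the knockout arrays it read 2.82, 3.02, 2.70, 2.80 and 2.76. Of the 5 knockout arrays 4 lay above every control, but all 10 values were under the array median. The difference of 0.26 ± 0.10 (95% interval 0.04 to 0.48) did not pass (adjusted p = 0.276, exact permutation p = 0.0159). Its relative Mfsd2b, a sphingosine phosphate exporter of blood cells, was at -0.16 ± 0.13 (adjusted p = 0.637).

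Slco1a4 (OATP1A4, chr6:141805438-141856284), an organic anion carrier of brain capillaries and hepatocytes, read 2.17, 2.34, 2.38, 2.33 and 2.87 in the control arrays and 2.64, 2.36, 2.01, 2.04 and 2.05 in the knockout arrays. The groups overlapped at a level under the array median. The log2 fold change was -0.20 ± 0.16 (95% interval -0.55 to 0.16, adjusted p = 0.653). Of 9 other members of the OATP family 0 passed by limma in the reported fit. An unadjusted p under 0.05 was found for 2, the prostaglandin carrier Slco2a1 (-0.99 ± 0.24, adjusted p = 0.0605) and Slco3a1 (0.34 ± 0.14, adjusted p = 0.310). Slco2a1 passed without control replicate 1 (-1.23 ± 0.15, adjusted p = 0.00118) or knockout replicate 3 (0.0466). It also passed with array weights (0.00124), an intensity trend (0.0452), dim genes left out (0.0401), scaling to pan-endothelial genes (0.0434) and the T and NK cell mean as a covariate (0.0125).

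Lef1 (chr3:131110297-131224357) encodes a transcription factor through which beta-catenin acts on barrier genes, and it is also a gene of T cells. In control replicates 1 to 5 it read 5.45, 3.21, 3.72, 3.24 and 3.31. In the knockout arrays it read 3.16, 3.16, 3.50, 3.34 and 3.38. A single array, control replicate 1, stood above the rest, and the other 4 controls averaged 3.37 ± 0.24 (SD, n = 4) within the range of the knockout arrays. The log2 fold change was -0.48 ± 0.37 (95% interval -1.29 to 0.33, adjusted p = 0.634), and it was -0.06 without control replicate 1. The mean of 9 T and NK cell markers was also highest in that array, at 3.38 against 2.94 to 3.27 in the others. Among these markers the SD over control arrays was 1.36 for Klrb1c, named after its value was seen, and at most 0.46 (Cd3g) for the rest. With the list mean as a covariate the log2 fold change of Lef1 was -0.56 ± 0.29 (adjusted p = 0.354). The part of T cells in the Lef1 value of control replicate 1 was not tested.

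The Wnt pathway around Lef1 gave no call in the reported fit. Of 21 genes measured, among them the receptors, co-receptors and feedback targets of the pathway, 0 passed by limma, 7 had an unadjusted p under 0.05 and 4 had groups that did not overlap, where 13.6% and 4.93% of all genes did so. The median change was 0.04. Closest to the threshold were Tspan12, which supports FZD4 signalling (0.48 ± 0.11, adjusted p = 0.0526), and Nkd1, a feedback inhibitor of the pathway (-0.74 ± 0.17, adjusted p = 0.0537). Without control replicate 1 both passed, Tspan12 at 0.50 ± 0.12 and Nkd1 at -0.78 ± 0.18, and both also passed with array weights, with dim genes left out and with the T and NK cell mean as a covariate. Fzd4 itself read 8.89 ± 0.28 and 8.83 ± 0.18 (SD, n = 5; 0.06 ± 0.15), the target Axin2 was at -0.28 ± 0.12 (adjusted p = 0.310), and both were named after their values were seen. So were Lrp6 (-0.46 ± 0.11, adjusted p = 0.0642) and Ctnnb1 (0.37 ± 0.11, adjusted p = 0.131), whose groups did not overlap. Lrp6 passed, lower, with an intensity trend (0.0423), array weights (0.0270), dim genes left out (0.0478) and without knockout replicate 3 (0.0418).

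RefSeq windows of 250 bases before to 50 after a start (GRCm38.p6) were found for 9 of the 10 genes, 14 windows in all, and were searched on both strands. The gene without a window was Slc7a5, so the counts below say nothing about it. The TCF/LEF core CTTTGA occurred in 4 of the 14, where 16.0% of all 32851 windows held it. The genes were Abcb1a, Mfsd2a, Slc3a2 and Lef1, in the latter pair within windows at starts inside the gene. The E-box CACGTG, read by MYC and other factors, was in the windows of Slc38a5 and Lef1 (7.15% of all windows). Of the GATA words, AGATAA (11.2%) and TGATAA (9.05%) were found in that window of Lef1, and the amino acid response word TGATGCA (3.15%) in 0 of the 14. A match is a run of letters and not a shown binding site. The lines show the TCF/LEF matches outside Abcb1a, in capitals, with 12 bases on each side, from Mfsd2a (chr4:122961286-122961315, - strand), Slc3a2 (chr19:8714069-8714098, - strand) and Lef1 (chr3:131156102-131156131 and chr3:131156162-131156191, + strand).

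Mfsd2a: gtgggttgccggCTTTGAgaacgtggctga
Slc3a2: tcggaggaggggCTTTGAaacctggtcaag
Lef1, first match: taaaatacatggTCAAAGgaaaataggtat
Lef1, second match: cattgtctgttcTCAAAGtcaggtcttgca

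Other transport genes of barrier endothelium, 25 measured outside the 10, went both ways. Of these 3 rose, 1 fell and 21 did not pass, with a median change of 0.10. The taurine carrier Slc6a6 averaged 7.23 ± 0.54 in control arrays and 8.76 ± 0.50 in knockout arrays (SD, n = 5) and rose by 1.53 ± 0.29 (adjusted p = 0.0188). The creatine carrier Slc6a8 (0.76 ± 0.16, adjusted p = 0.0392) and the cationic amino acid carrier Slc7a1 (0.75 ± 0.16, adjusted p = 0.036) rose less. Slc39a8, which imports zinc and manganese, fell by 1.04 ± 0.11 on the log2 scale (adjusted p = 0.000515), from 9.19 ± 0.09 to 8.15 ± 0.16. Its call held without each array in turn, under that scaling and with the block, as did that of Abca1, and both were lost with the bile duct mean as a covariate (adjusted p = 0.071 and 0.0552). Slc6a6 lost its call when knockout array 4 or control array 5 was left out (largest adjusted p 0.0529). Slc6a8 lost it with knockout array 2, 3, 4 or 5, or control array 3, 4 or 5, left out (0.105), and Slc7a1 with knockout array 1, 2, 3 or 4, or control array 2, 3 or 4, left out (0.0937).

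**Figure D4:**
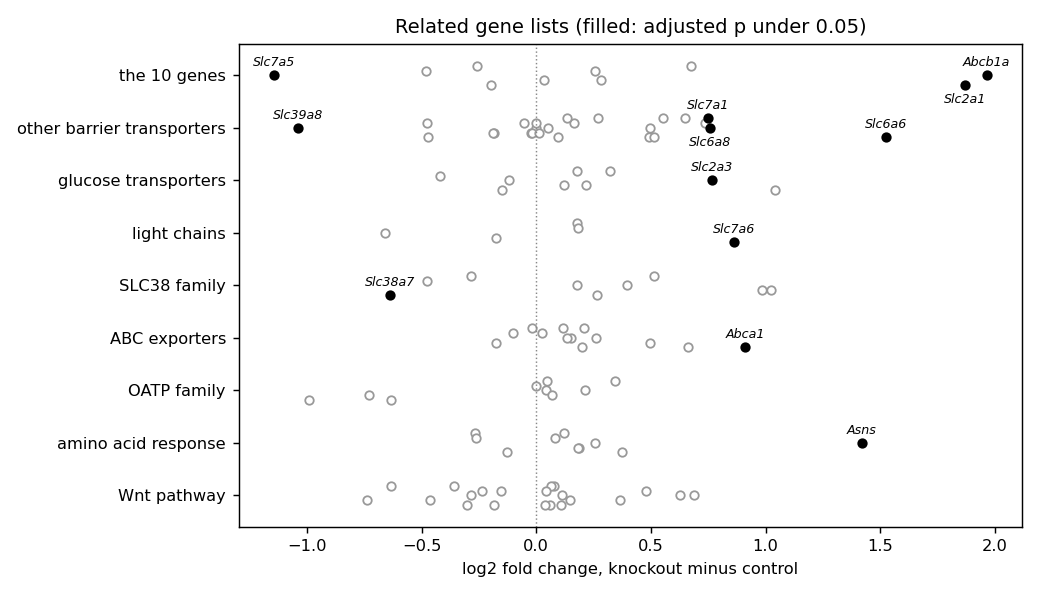
Log2 fold change, knockout minus control (x axis), of the 10 genes and of 8 lists of related genes (rows), filled and named where the adjusted p was under 0.05. Passing genes lie on both sides of 0, from Slc7a5 at -1.14 to Abcb1a at 1.96, and no gene of the Wnt and OATP rows is filled.

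Structural genes of barrier endothelium gave 1 call among 9 in the reported fit. The tight junction gene Ocln rose by 1.29 ± 0.27 (adjusted p = 0.0319), while Cldn5, the main claudin of brain endothelium, was at -0.53 ± 0.13 (adjusted p = 0.0679) and Plvap, the fenestral diaphragm gene that mature barrier endothelium lacks, at 0.24 ± 0.16 (adjusted p = 0.569). The latter pair was named after their values were seen. The groups of Cldn5 did not overlap. Cldn5 passed, lower, with an intensity trend (adjusted p = 0.0490), array weights (0.0123), dim genes left out (0.0484) and without control replicate 1 (0.0257). Car4, also named after its value was seen, passed, higher, with array weights (0.0227) and without control replicate 1 (0.0383). Ocln is also a gene of bile duct epithelium, whose marker means were higher in the knockout. With their mean as a covariate, a fit added after the data were seen, the estimate for Ocln was 0.27 (adjusted p = 0.846). That mean lay apart between the groups, so this fit cannot separate it from the genotype. The part of bile duct cells in the rise was not tested. The call of Ocln was lost with knockout array 1, 2 or 4, or control array 2, 3, 4 or 5, left out (largest adjusted p 0.0835).

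The lists of other cells add the following. Among sinusoidal markers the C-type lectin gene Clec4g fell by 0.76 ± 0.14 on the log2 scale (adjusted p = 0.0207) and the mannose receptor gene Mrc1 by 0.57 ± 0.13 (0.044), and both calls were lost when single arrays were left out, up to 0.0598 and 0.107. The neutrophil granule gene S100a8 rose by 3.16 ± 0.53, with S100a9, Ngp, Retnlg and Ltf also past the threshold, the last named after its value was seen. Retnlg lost its call with knockout array 4 or control array 2, 3, 4 or 5 left out (largest adjusted p 0.0739), and the other 4 kept theirs. The bile duct genes nearest the threshold were Cdh1 (1.97 ± 0.46, adjusted p = 0.0512) and Sox9 (1.43 ± 0.35, 0.0656). Hepatocyte markers split, with Tat up by 2.06 ± 0.40, Cyp2e1 at -1.52 ± 0.31 (passing, lower) and 7 of 9 not past the threshold. Tat lost its call with knockout array 1 or control array 3, 4 or 5 left out (largest adjusted p 0.0596), and Cyp2e1 with knockout array 1 or 2, or control array 3, 4 or 5, left out (0.0781). By limma 0 genes passed among 9 T and NK cell, 4 B cell, 6 macrophage, 6 erythroid and 7 stellate cell markers, and 0, 0, 0, 0 and 4 of them had an unadjusted p under 0.05.

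The genes whose values over the 10 arrays were most like those of Abcb1a, by Pearson's r, were Adamts9 (0.980), Itga2 (0.975) and Nek6 (0.974), a secreted metalloproteinase, an integrin chain and a mitotic kinase. Each rose in the knockout as well, by 2.17 ± 0.16, 1.90 ± 0.22 and 1.07 ± 0.13 on the log2 scale. The r values describe 10 arrays that fall into 2 groups, and likeness within a group was not examined.

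**Figure D5:**
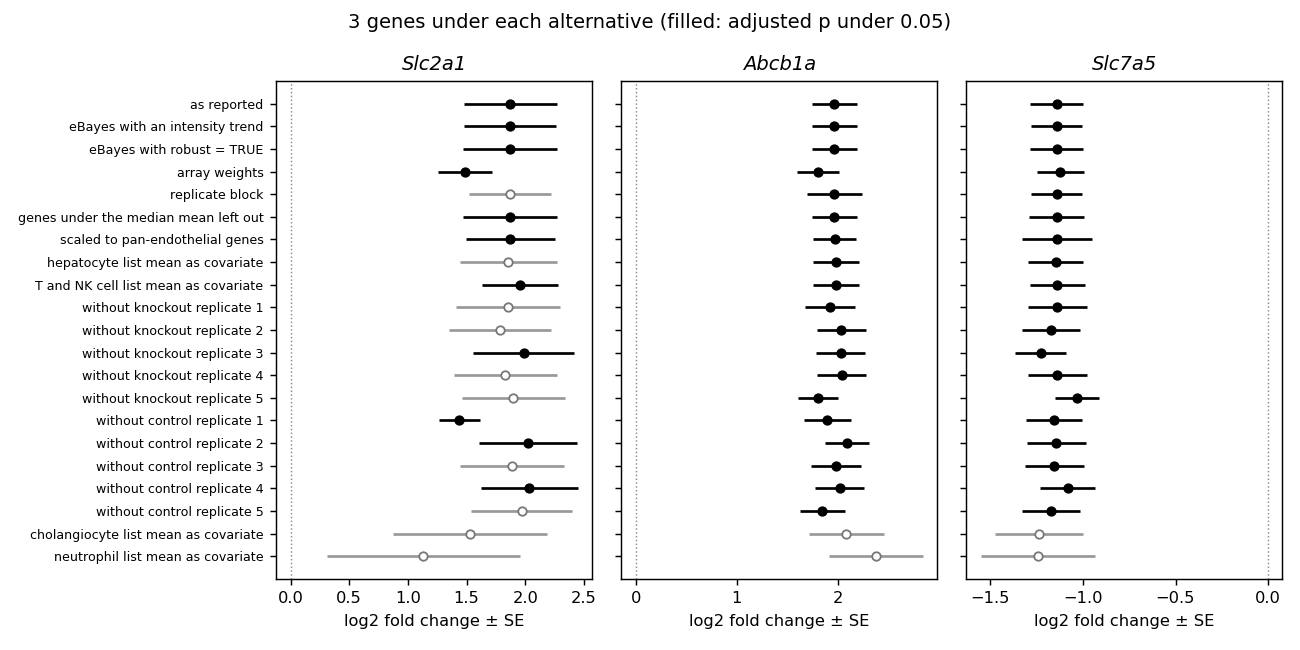
Log2 fold change ± SE (x axis) of Slc2a1, Abcb1a and Slc7a5 under the reported fit and 20 alternatives (rows), filled where the adjusted p was under 0.05. Signs are the same in every row, Abcb1a and Slc7a5 are filled in 18 of the 20 alternatives and Slc2a1 in 10.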

How the data were processed

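Total RNA of 10 samples was hybridised to 1-colour Affymetrix arrays. The authors' deposited log2 values were made with RMA, per the submitters' processing notes. The log2 scale was read from the values, each array's median was 3.71, and the values were used unchanged. The sources used here give no probe positions, detection calls or genome build, so a gene can be called neither absent nor above background.

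Of 25428 probe sets, 24705 had 1 gene symbol, 0 several and 723 none. 1 repeated symbol was represented by its brighter probe set, which left 24704 genes. The groups were contrasted in limma 3.58.1 under R 4.3.3 (lmFit, eBayes, no trend, covariate or filter), two-sided, with Benjamini-Hochberg adjustment over the 24704 genes and a threshold of 0.05. Means are given ± SD, n = 5. The p-values rest on the spread among 3-mouse pools, and the number of arrays limits the precision.

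The members and gene lists were chosen with earlier results of these data known. From each list the text names up to 4 genes that passed or, where none did, up to 2 with the smallest p, plus Gata4 and the 3 genes most like the member with the smallest p. Any other name is marked as picked from its value. The fit was tested on simulated data before use. Alternatives were trend, robust and weighted fits, the replicate number as a block, a filter on dim genes, scaling to pan-endothelial genes, marker means as covariates and leaving out each array. The bile duct and neutrophil covariates were added after the data were seen. Planned comparisons of protein sequences were not made.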

Additional observations from a re-analysis of the deposited data

Results flagged for a closer look

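In 20 sets of 5 values (10 genes in 2 groups), a value was checked for its distance from the others of its group by Dixon's test, which chance alone passes in about 1 of 20 groups. Slc2a1 in control replicate 1 read 3.18, where the other controls read 4.98 to 5.57. Lef1 in control replicate 1 read 5.45, where the other controls read 3.21 to 3.72. Both values come from the array whose correlations with the rest were lowest.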

How the results depend on the processing

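The count of genes past the threshold, 529 (320 higher, 209 lower), became 1070 (616 and 454) with array weights, 267 (183 and 84) scaled to pan-endothelial genes, and 59 (49 and 10) or 0 (0 and 0) with the bile duct or neutrophil mean as a covariate. Both means lay apart between the groups. In the latter, 1162 genes had an unadjusted p under 0.05. With the replicate number as a block the count was 275 (200 and 75). Same-numbered arrays did not deviate together over all genes (correlations of -0.165 to 0.0389). The labels do not say whether a number marks a shared batch, and so few values cannot exclude weak pairing. Leaving out an array gave 287 to 737 genes, 182 to 394 higher and 105 to 343 lower. The total was more than 1.5 times smaller without knockout array 1, 2 or 4 or control array 3, 4 or 5, and the lower count more than 1.5 times larger without control array 1. The 3 members past the threshold became 0 with the bile duct or neutrophil covariate and 2 to 3 without an array. Slc2a1 was lost with the block (adjusted p = 0.0600) and the hepatocyte covariate (0.0537), Abcb1a and Slc7a5 with neither. Slc38a5, at 0.03, changed sign with array weights (-0.019) and the neutrophil covariate (-0.044), and ranged from -0.025 to 0.123 without an array, below 0 without knockout array 4 or control array 1 or 5. Of the related and marker genes named as passing, the block ended the calls of Slc7a1, Slc7a6, Slc2a3, Slc38a7, Clec4g, Mrc1, Ocln, Tat and Retnlg, scaling those of Slc7a1, Slc6a8, Slc7a6, Slc2a3, Slc38a7, Asns and Ocln, the hepatocyte covariate those of Slc7a1, Slc7a6, Asns and Mrc1, and the bile duct and neutrophil covariates all of them. The other 9 members kept their direction in all fits. By the exact permutation test alone, with no adjustment, Abcb1b (0.0397) and Mfsd2a (0.0159) also had p under 0.05. Some related genes passed by limma only in alternatives, those here named after their values were seen. Without control replicate 1, Slc29a1 (-0.58, adjusted p = 0.00376), Slc7a7 (-0.82, 0.0111) and Slc38a6 (-0.62, 0.0241) passed. Without knockout replicate 5, Slc38a11 passed (1.37, 0.00202). The barrier transporter gene Slc39a10 passed, higher, with array weights (0.0286), dim genes left out (0.0383) and the T and NK cell covariate (0.0461). The sinusoidal markers Stab1 (-0.62, 0.0470) and Stab2 (-0.62, 0.0279) passed with array weights. The cause of these changes was not tested. The filter on dim genes left out Mfsd2a, Slco1a4, Slc38a5 and Lef1. Signal near the array median (Lef1) or well under it (the others) limits what can be said of these 4.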
